A study of Bos taurus with 12 samples.

Results

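The genes described here are the 3 D-type cyclins CCND1, CCND2 and CCND3, the 3 CDK inhibitors of the Cip/Kip family CDKN1A, CDKN1B and CDKN1C, the stress-inducible growth arrest gene GADD45A and the transcription factor MYC. They were measured in skeletal muscle of bulls given growth-promoting drugs. They were found as the probes, other than controls, whose gene name, gene number, accession or description on the array maps to one of these symbols. The array held 19721 named genes and all 8 of these, each with 1 probe printed on 2 spots. The probes of 7 of them were well above background on all 12 arrays and were tested among 13675 genes in all. The CDKN1B probe was above background on 0 of 12 arrays and was not tested. The CDKN1C probe was designed on an expressed sequence tag that carries a human CDKN1C match, so its name is less certain than the others.

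RNA came from the biceps brachii of 12 bulls, all 18 to 20 months old, with 4 animals per group. Control bulls were untreated. The dexamethasone bulls were fed 0.75 mg per head of this synthetic glucocorticoid for 42 days. The combination bulls were fed 0.66 mg of dexamethasone per head for 21 days together with clenbuterol, a beta-adrenergic agonist, whose daily amount per head was raised from 2 mg (first week) to 4 mg (next week) and then 6 mg (final 2 weeks) over 28 days, so the treated groups differ in dexamethasone dose and length as well as in clenbuterol. The study held 24 animals, and those hybridised were chosen for the highest RNA quality. The time from the last dose to slaughter was not given in the sources used here.

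D-type cyclins bind and activate the kinases CDK4 and CDK6, which phosphorylate the retinoblastoma protein and so release E2F transcription factors for entry into the DNA synthesis phase. Cip/Kip proteins bind cyclin-CDK complexes and hold CDK2 inactive, GADD45 proteins respond to stress and DNA damage, and MYC drives growth and D cyclin expression. Muscle fibres are post-mitotic: during fibre formation myoblasts leave the cell cycle with rising CDKN1A, CDKN1C and CCND3, while CCND1 marks dividing myoblasts. CDKN1C is a known target of the glucocorticoid receptor in several cell types, and in lymphoid cells dexamethasone is known to lower CCND3 and MYC.

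On each array 53.2% to 68.7% of spots were well above background. The mean correlation between arrays was 0.972 within a group and 0.9668 across groups. Muscle fibre markers were high throughout, with array means between 7.05 and 7.98 over 13 measured of 15 listed genes, and 0 of them was called in any comparison (limma). The satellite cell markers PAX7 and CALCR were not above background on the arrays needed for testing. Scan day 2, per the file headers, held 7 arrays: control replicate 4, dexamethasone replicates 1 to 3 and combination replicates 1 to 3. The other 5 arrays were scanned on 3 other days, so most controls and most treated bulls were scanned on different days. For the 7 tested genes described here, each difference from control is also given within scan day 2 (3 treated bulls against 1 control) and outside it (1 against 3). Differences of other genes are not split in this way. FKBP5, a glucocorticoid receptor target, was lower after dexamethasone (log2 change -3.08, limma adjusted p = 0.0391). Its mean was 3.57 ± 0.51 in controls, 0.50 ± 0.52 with dexamethasone and 2.87 ± 1.45 with the combination (SD, n = 4). The fall is not taken here as a check of exposure to the drug. Levels below are log2 signals relative to the array's 75th percentile, and levels of different genes, which come from different probes, are not set against each other.

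**Figure D1:**
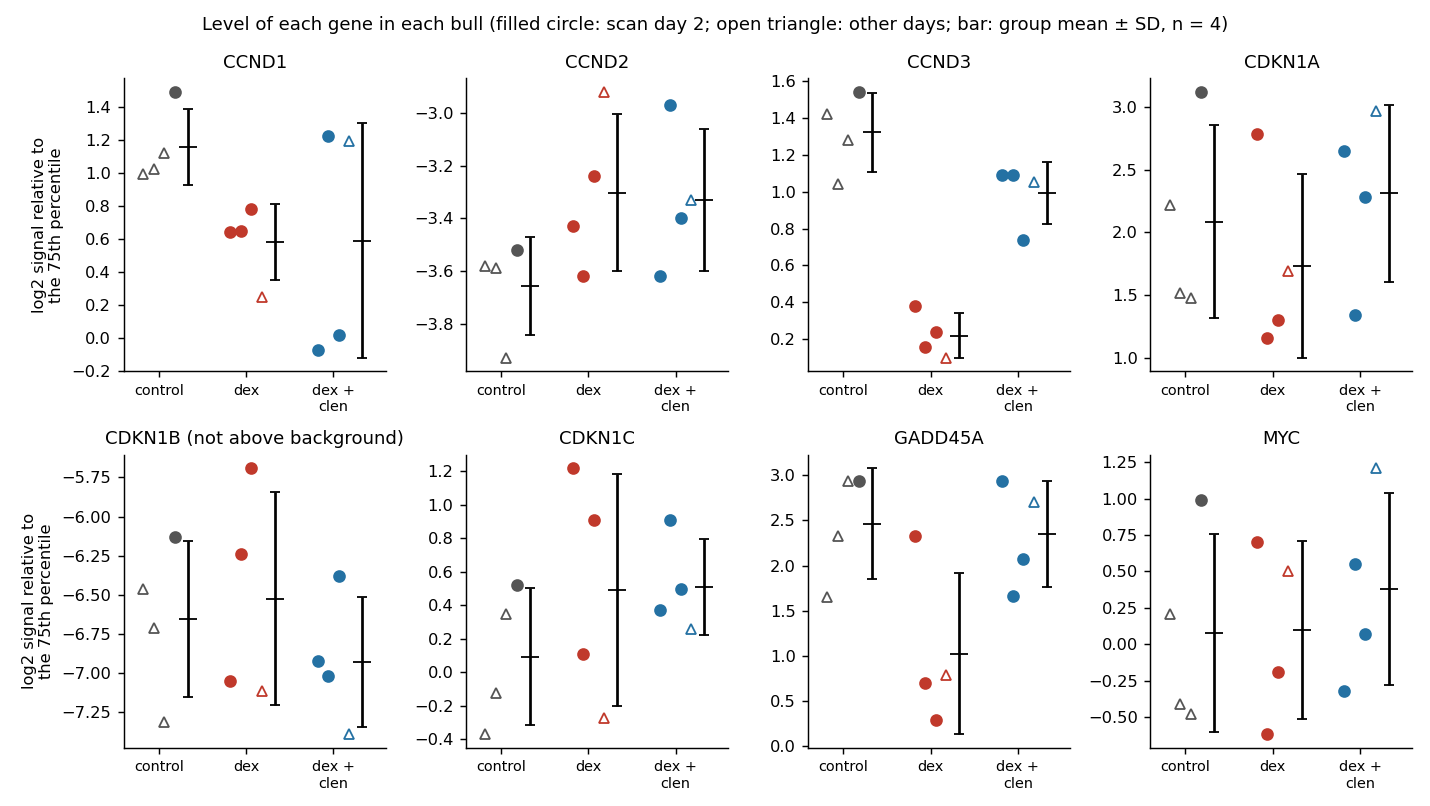
Each panel plots the log2 signal of 1 gene, relative to the array's 75th percentile, in each of the 12 bulls, with the group mean ± SD (n = 4) beside the points; filled circles mark scan day 2 and open triangles the other scan days. The 4 dexamethasone bulls lie between 0.10 and 0.38 for CCND3, below all control bulls (1.04 to 1.54) and all combination bulls (0.74 to 1.09).

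CCND3, the D cyclin that differentiating muscle cells keep, fell 2.15-fold in bulls given dexamethasone alone. Its levels were 1.42, 1.04, 1.28 and 1.54 in control replicates 1 to 4. They were 0.38, 0.16, 0.24 and 0.10 in the dexamethasone replicates. They were 1.09, 1.09, 0.74 and 1.05 in the combination replicates. All 4 dexamethasone bulls lay below every other bull. Of the combination bulls 3 lay inside the control range, and replicate 3 lay between the control and dexamethasone bulls. Group means were 1.32 ± 0.21, 0.22 ± 0.12 and 0.99 ± 0.17 (SD, n = 4). The dexamethasone change was -1.1 ± 0.15 on the log2 scale (SE, 95% interval -1.44 to -0.77, limma adjusted p = 0.00927), and the fold lay between 1.7 and 2.7. It ranked 10 by p among all genes tested. An exact two-sided permutation test gave p = 0.0286, the smallest that 70 assignments allow. Of the 7 tested genes CCND3 alone was called in this comparison, where limma called 0.614% of all genes, and CCND3 and CCND1 had no overlap between the groups, which held for 6.45% of all genes.

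Within scan day 2 the CCND3 difference between dexamethasone and control was -1.28 (3 treated bulls against 1 control), and outside it was -1.14 (1 against 3). With scan day as a fixed block the estimate was the same -1.28 and the call was lost. Scan day 2 alone held arrays of more than 1 group, so that fit also compares 3 treated bulls with 1 control. It is not a further estimate from all arrays. In bulk tissue, fewer cells of a type and less RNA per cell cannot be told apart.

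In the combination group CCND3 differed from control by -0.33 ± 0.15 (95% interval -0.66 to 0.00, limma adjusted p = 0.417), and the groups overlapped. This difference was -0.56 within scan day 2 and -0.20 outside it. Against dexamethasone alone the combination group was higher by 0.77 ± 0.15 (95% interval 0.44 to 1.11), a 1.71-fold difference without overlap of the groups. The exact permutation p was 0.0286, and the difference ranked 22 by p. It did not pass over all genes (limma adjusted p = 0.147). Within scan day 2 it was 0.72 (3 bulls against 3) and outside it 0.94 (1 against 1). Both treated groups were set against the same controls, and both contrasts with dexamethasone use the same dexamethasone bulls.

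**Figure D2:**
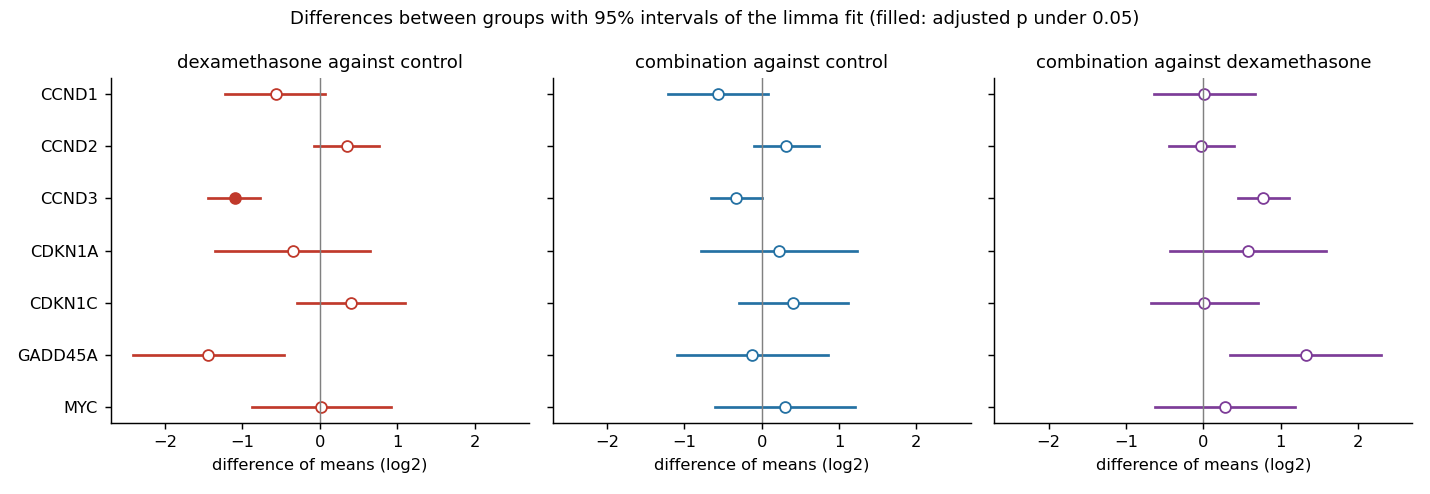
The difference of group means (log2, x axis) of each tested gene is plotted with its 95% interval from limma, in 1 panel for each of the 3 comparisons; a filled point marks an adjusted p under 0.05. The single filled point is CCND3 for dexamethasone against control (-1.1), and the intervals of GADD45A (-2.41 to -0.46) and CCND3 also exclude 0 there.

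CCND1, the cyclin of dividing myoblasts, was at 0.99, 1.02, 1.12 and 1.49 in control replicates 1 to 4 and at 0.64, 0.65, 0.78 and 0.25 in the dexamethasone replicates. Those 8 values did not overlap, yet the difference of -0.57 ± 0.30 (95% interval -1.22 to 0.07) did not pass over all genes (limma adjusted p = 0.462). Its exact permutation p was 0.0286. Within scan day 2 the difference was -0.80 and outside it -0.79. The combination bulls split, with replicates 1 and 3 at -0.07 and 0.02, below every dexamethasone bull, and replicates 2 and 4 at 1.22 and 1.19, within the control range. The resulting SD of 0.71 was the widest of the 3 groups for this gene. The mean difference of the combination from control was -0.56 ± 0.30 (limma adjusted p = 0.463), with -1.1 within scan day 2 and 0.15 outside it. Between the treated groups it was 0.01 ± 0.30 (95% interval -0.64 to 0.66), with -0.30 within scan day 2 (3 against 3) and 0.94 outside it (1 against 1).

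CCND2, the remaining D cyclin, had a dim probe, with processed signals of 55.8 to 163 units and up to 0.738 log2 units between its 2 spots on an array. Levels were -3.58, -3.59, -3.93 and -3.52 in controls, -3.43, -3.62, -3.24 and -2.92 with dexamethasone, and -3.62, -2.97, -3.40 and -3.33 with the combination. In each treated group 3 of 4 bulls lay above the highest control. The differences from control were 0.35 ± 0.19 for dexamethasone (limma adjusted p = 0.5) and 0.32 ± 0.19 for the combination (limma adjusted p = 0.517), and neither passed. The dexamethasone difference was 0.08 within scan day 2 and 0.78 outside it, and the combination difference 0.19 and 0.36. With normexp background correction the differences over all arrays were 0.12 for dexamethasone and 0.06 for the combination, so their size depends on the background step. Among the D cyclins CCND3 fell after dexamethasone, while CCND1 and CCND2 had differences of opposite sign that were not called. Whether the D cyclins differ from each other in response was not tested.

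CDKN1A, or p21, the inhibitor that p53 and MYOD1 induce, varied more between bulls of a group than between groups. Its levels were 2.22, 1.52, 1.48 and 3.12 in controls. With dexamethasone they were 2.78, 1.16, 1.30 and 1.69, and with the combination 2.65, 1.34, 2.28 and 2.97. Every group held bulls below 1.6 and bulls above 2.7, so the groups overlapped throughout. The differences from control were -0.35 ± 0.46 for dexamethasone (95% interval -1.36 to 0.65, limma adjusted p = 0.81) and 0.23 ± 0.46 for the combination (95% interval -0.78 to 1.23, limma adjusted p = 0.875). The dexamethasone difference was -1.37 within scan day 2 and -0.05 outside it. The combination difference was -1.03 within scan day 2 and 1.23 outside it, so the size of the first and the sign of the second depend on which arrays are compared.

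CDKN1C, or p57, was at -0.37, -0.12, 0.35 and 0.52 in controls. It was at 1.22, 0.11, 0.91 and -0.27 with dexamethasone and at 0.37, 0.91, 0.50 and 0.26 with the combination. Dexamethasone replicates 1 and 3 lay above all controls, while replicate 4 lay between the 2 lowest controls. Differences from control were 0.40 ± 0.32 (95% interval -0.30 to 1.1, limma adjusted p = 0.677) and 0.41 ± 0.32 (95% interval -0.29 to 1.11, limma adjusted p = 0.625). The dexamethasone difference was 0.23 within scan day 2 and -0.22 outside it, and the combination difference 0.07 and 0.30. The upper bounds of these intervals are rises of 2.14-fold and 2.16-fold, and both intervals hold 0.

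CDKN1B, or p27, which holds resting cells out of the cycle, was not well above background in any bull. Its values ran from -7.31 to -6.13 in controls, from -7.11 to -5.69 with dexamethasone and from -7.39 to -6.38 with the combination. In a fit without the filter on dim probes the 3 differences were 0.13, -0.27 and -0.41 (SE 0.36), with limma adjusted p of 0.899, 0.914 and 0.877. A signal this low gives no order of the groups.

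GADD45A, a stress-induced partner of p21 and a gene known to rise in wasting muscle, had the largest difference of the 7 tested genes after dexamethasone and did not pass. Control replicates 1 to 4 were at 1.65, 2.33, 2.94 and 2.94. Dexamethasone replicates 2, 3 and 4 were at 0.70, 0.29 and 0.79, below every control, and replicate 1 was at 2.33, inside the control range. Combination replicates were at 2.94, 1.66, 2.07 and 2.71, all inside that range as well. The dexamethasone difference was -1.44 ± 0.45 (95% interval -2.41 to -0.46), a ratio of 2.7-fold (limma adjusted p = 0.204). The exact permutation p was 0.0571. Without dexamethasone replicate 1 the difference was -1.87 ± 0.37 and was called (limma adjusted p = 0.0303), in a fit that called 261 genes in place of 84. Within scan day 2 it was -1.83 and outside it -1.51.

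The combination differed from control in GADD45A by -0.12 ± 0.45 (95% interval -1.09 to 0.86, limma adjusted p = 0.938). That difference was -0.72 within scan day 2 and 0.40 outside it, so its sign depends on which arrays are compared. From dexamethasone alone it differed by 1.32 ± 0.45 (95% interval 0.34 to 2.29), a 2.49-fold ratio that did not pass over all genes (limma adjusted p = 0.311). The exact permutation p was 0.0857. Within scan day 2 this difference was 1.12 (3 against 3).

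MYC was at 0.21, -0.41, -0.48 and 0.99 in controls. It was at 0.70, -0.62, -0.19 and 0.50 with dexamethasone and at -0.32, 0.55, 0.07 and 1.21 with the combination. Each group spanned more than 1 log2 unit, and all 3 overlapped. Differences from control were 0.02 ± 0.41 for dexamethasone (95% interval -0.88 to 0.92, limma adjusted p = 0.993) and 0.30 ± 0.41 for the combination (95% interval -0.60 to 1.20, limma adjusted p = 0.803). The signs turned between scan days: -1.02 within scan day 2 and 0.73 outside it for dexamethasone, and -0.89 and 1.44 for the combination.

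For the combination against control limma called 0 of the 7 tested genes, where it called 0.0439% of all genes, and 0 of the 7 had an unadjusted p under 0.05. The groups overlapped for all 7, while 8.23% of all genes had no overlap. For the combination against dexamethasone limma called 0 of the 7, where it called 0.0146% of all genes. CCND3 and GADD45A had an unadjusted p under 0.05 in that comparison. CCND3 alone had no overlap, against 5.3% of all genes. The median difference of the 7 genes was -0.35 for dexamethasone against control, 0.23 for the combination against control and 0.28 for the combination against dexamethasone, beside all-gene medians of 0.034, 0.031 and 0.017.

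**Figure D3:**
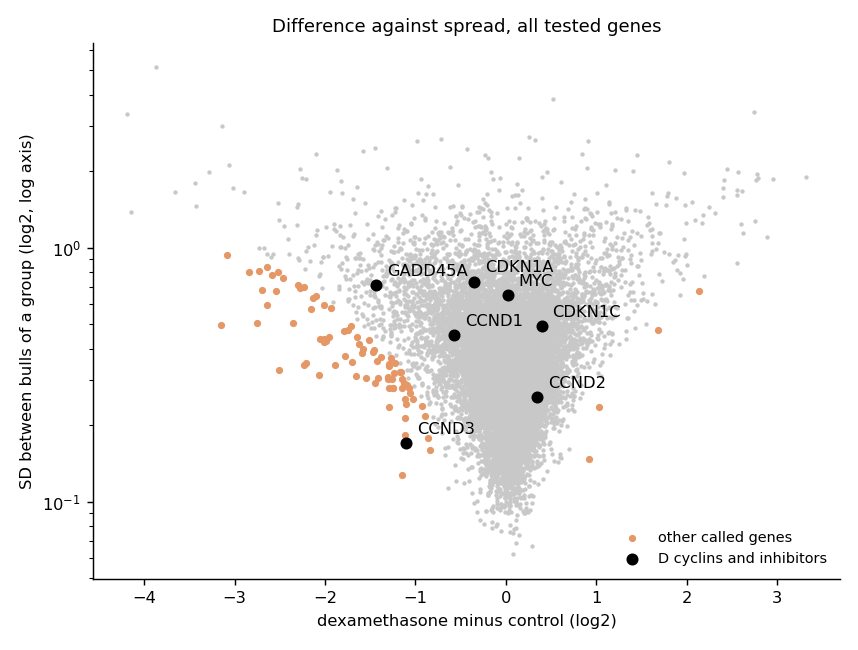
Each point is 1 of the 13675 tested genes, with the difference between dexamethasone and control (log2) on the x axis and the SD between bulls of a group (log2 units, log axis) on the y axis; orange points are called genes and black points the tested genes described here. CCND3 lies low at -1.1 with an SD of 0.17, and GADD45A lies further left at -1.44 with an SD of 0.712.

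The genes differed in the spread between bulls of one group, which enters the test together with the size of the difference. CCND3 had an SD of 0.17 within groups, and 7.99% of all genes had a smaller one. CCND2 followed at 0.258, then CCND1 at 0.451 and CDKN1C at 0.492. MYC (0.652), GADD45A (0.712) and CDKN1A (0.735) were among the more variable genes, since 87.4%, 90.1% and 91.1% of all genes had a smaller SD and the all-gene median was 0.347. The 2 spots of these 3 probes differed by medians of 0.113, 0.05 and 0.093 log2 units on an array, well under the differences between bulls.

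Some of these genes ranked the bulls alike, without passing a test. All 21 pairs of the 7 genes were computed over 12 arrays, and 0 had an adjusted p under 0.05. CDKN1A and MYC gave r = 0.669 and rho = 0.692 (permutation p = 0.0201 for r and 0.0154 for rho, adjusted 0.166 and 0.15). Their r was 0.666 with group means removed, 0.574 within scan day 2, and 0.393 without the 2 bulls farthest from the median of CDKN1A, so it rests partly on those bulls. CDKN1A and GADD45A gave r = 0.658 and rho = 0.653 (permutation p = 0.0238 and 0.0254, adjusted 0.166 and 0.15), with 0.671 after removal of group means, 0.903 within scan day 2 and 0.544 without the 2 farthest bulls. For CCND3, whose dexamethasone bulls form a separate cluster, no pooled pair value is given.

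The genes whose levels followed each gene most closely over the 12 arrays were found among all genes tested, as a description. For CCND3 they were KCNMB4, a subunit of calcium-activated potassium channels (r = 0.961), HPCAL1, a neuronal calcium sensor protein (r = 0.955), and DDR2, a collagen receptor of fibroblasts (r = 0.943). All 3 were called lower after dexamethasone, by -2.51, -1.29 and -1.11 on the log2 scale (limma adjusted p = 0.00184, 0.00927 and 0.0165). With group means removed the correlations were 0.543, 0.598 and 0.513, so much of the likeness is the gap between groups. KCNMB4 was also called in the combination against dexamethasone (1.91, limma adjusted p = 0.0319), but its probe was above background on 1 of 4 dexamethasone arrays, and its other kept probe gave -1.46 for dexamethasone against control.

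GADD45A was followed by PLEKHA5 (r = 0.963), RGS1 (0.91), a regulator of G protein signalling found in leukocytes, and FGL1 (0.902). PLEKHA5 kept r = 0.945 with group means removed, and its difference after dexamethasone was -0.67 (limma adjusted p = 0.207). RGS1 differed by -3.66 after dexamethasone without passing (limma adjusted p = 0.147). It was at -0.06 in dexamethasone replicate 1 and at -4.55, -5.40 and -3.87 in replicates 2 to 4, the same bulls in which GADD45A was low, and was above background on 2 of those 4 arrays. CCND1 was followed by LOXL4 (0.882), MYO1D (0.872) and FLJ35258 (0.868), CCND2 by HEXA (0.901), SOX4 (0.885) and SSPO (0.874), and CDKN1A by TBC1D8 (0.844), CREB5 (0.836) and BCAS1 (0.814). CDKN1C was followed by PAFAH2 (0.917), ODF2 (0.912) and KIF5C (0.912), and MYC by the protease ADAMTS4 (0.89), galactokinase GALK1 (0.869) and SELENOK (0.86).

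**Figure D4:**
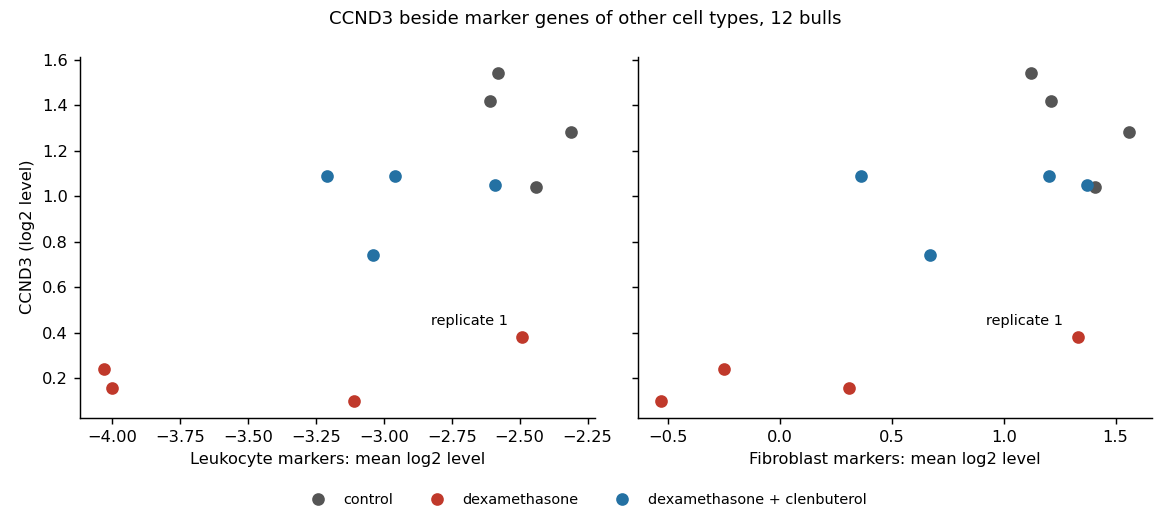
CCND3 (log2 level, y axis) in each of the 12 bulls is plotted against the mean log2 level of 13 measured leukocyte markers (left) and 13 fibroblast markers (right), coloured by group. Dexamethasone replicate 1 lies at -2.49 and 1.33, inside the control ranges of both marker lists, and at 0.38 for CCND3.

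Markers of leukocytes and fibroblasts were lower in most dexamethasone bulls. Of 18 listed leukocyte markers 13 were measured, and their median change was -0.77 with 10 below 0. CD3E, a chain of the T cell receptor complex, was called lower (-1.74, limma adjusted p = 0.0312), from -3.09 ± 0.48 to -4.83 ± 0.43 (SD, n = 4). Its probe was above background on 3 of 4 dexamethasone arrays. Mean levels of the list ran from -2.61 to -2.31 in controls, -4.03 to -2.49 with dexamethasone and -3.21 to -2.59 with the combination. The B cell genes CD79B and MS4A1 and the myeloid gene ITGAM were not above background on any array. All 13 fibroblast markers had differences below 0 (median -1.19), and 0 were called by limma, with 8 at an unadjusted p under 0.05. Their mean ran from 1.12 to 1.56 in controls, -0.53 to 1.33 with dexamethasone and 0.36 to 1.37 with the combination.

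Dexamethasone replicate 1 had leukocyte and fibroblast means of -2.49 and 1.33, both within the control ranges. Single genes named above did not all lie within the control range in this bull. CD3E, of the leukocyte list, was at -4.74 (controls -3.51 to -2.43). DDR2 and RGS1 are in neither list. DDR2 was at -3.22 (controls -2.60 to -2.36), while RGS1 at -0.06 was within the control range. The CCND3 level of this bull, 0.38, was below all controls and all combination bulls, while its GADD45A level of 2.33 was inside the control range. Its muscle fibre marker mean of 7.05 was the lowest of the 12 arrays (7.48 to 7.75 in controls), and its adipocyte marker mean of -1.58 was just below the controls (-1.55 to -1.02). Without that bull the CCND3 change was -1.16 ± 0.16. The part of other cell types in the CCND3 and GADD45A differences was not tested. Satellite cell markers had a median change of -0.18 after dexamethasone and endothelial markers of 0.18, with 0 called by limma in either list and 1 of 8 and 5 of 13 at an unadjusted p under 0.05, beside 12.3% of all genes. The 1 was MYOD1, the myogenic transcription factor, named here after its values were seen (1.33, limma adjusted p = 0.0828, no overlap). The remaining lists, for smooth muscle, adipocytes, blood cells and nerve, had medians of 0.22, 0.16, 0.11 and 0.24 with 0 called and 1, 2, 0 and 1 at an unadjusted p under 0.05.

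Related genes, from partners in the G1 machinery and p53 targets to genes of the S, G2 and M phases, were taken as 5 lists of 94 genes. Of these 79 were tested. Limma called 0 of the 79 in each comparison. An unadjusted p under 0.05 was reached by 14 (17.7%) for dexamethasone against control, 10 (12.7%) for the combination against control and 17 (21.5%) for the combination against dexamethasone, beside 12.3%, 12.1% and 11% of all genes. The median difference of a list lay between -0.16 and 0.24 over the 5 lists and 3 comparisons, beside all-gene medians of 0.017 to 0.034.

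Of the D cyclin kinases, the RB family and the E2F factors 18 of 20 were measured, CDK6 and E2F1 being too dim. CDK4, a kinase partner of the D cyclins, was at -0.15 ± 0.14 in controls, -0.08 ± 0.17 with dexamethasone and -0.17 ± 0.09 with the combination (SD, n = 4). These 3 means lay within 1 SD of each other. The smallest p in the list belonged to CDK2, the kinase that Cip/Kip proteins inhibit (-0.45 after dexamethasone, limma adjusted p = 0.334, with -0.22 from its other probe), and to E2F2, 1.13 above control and 1.40 above dexamethasone in the combination (limma adjusted p = 0.362 and 0.289), whose probe was above background on 9 of 12 arrays.

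Of the other CDK inhibitors and p53 targets 17 of 19 were measured. GADD45G, a paralog of GADD45A that denervated muscle is known to induce, was nearest to passing. It was at 3.84, 4.23, 4.29 and 5.89 in controls and at 2.76, 2.27, 3.40 and 2.83 with dexamethasone, without overlap. The difference was -1.75 ± 0.39 (limma adjusted p = 0.0773). In the combination bulls it was at 4.70, 4.20, 4.89 and 4.36, all above the dexamethasone bulls, by 1.72 ± 0.39 on average (limma adjusted p = 0.163).

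GADD45B, another paralog, is named here after its values were seen. Its levels were 0.91, 1.17, 1.57 and 3.40 in controls, 1.59, 0.92, 0.63 and 3.02 with dexamethasone and 2.63, 2.6, 3.34 and 3.30 with the combination. Its difference from control was -0.22 for dexamethasone (limma adjusted p = 0.922) and 1.21 for the combination (limma adjusted p = 0.426), neither of which passed. All 3 GADD45 genes had their lowest mean with dexamethasone alone, though for GADD45B the gap to control was far within the spread between bulls. Within scan day 2 the dexamethasone bulls (1.59, 0.92 and 0.63) and combination bulls (2.63, 2.6 and 3.34) lay below the control bull (3.40). Outside it the dexamethasone bull (3.02) and the combination bull (3.30) lay above the controls (0.91, 1.17 and 1.57). The sign of both GADD45B differences thus depends on which arrays are compared. SESN2, a stress-induced inhibitor of mTORC1 signalling, had the smallest p of the list in the combination against control (0.84, limma adjusted p = 0.334).

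In the MYC and MAX network 12 of 15 genes were measured. MAX, the obligate partner of MYC, was at 1.84, 0.81, 1.79 and 2.10 in controls and at 0.49, 0.38, 0.58 and 0.82 with dexamethasone. The highest dexamethasone bull thus just reached the lowest control, and the difference was -1.07 ± 0.36 (limma adjusted p = 0.24). Its other probe, above background on 4 of 12 arrays, gave -1.06. MXD4, which competes with MYC for MAX, was 0.68 higher in the combination than with dexamethasone (limma adjusted p = 0.267), and MYCBP, a MYC-binding protein, was at -0.39 in the combination against control (limma adjusted p = 0.326).

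Among the genes of D cyclin and CDK inhibitor turnover, of which 15 of 16 were measured, PIM1 had the smallest p. This kinase phosphorylates p21 and p27. It was at 0.82, -0.10, 0.24 and -0.27 in controls, 1.22, 1.64, 1.08 and 2.56 with dexamethasone, and -0.98, 0.44, -0.40 and 0.04 with the combination. The dexamethasone bulls lay above all 8 others, by 1.46 ± 0.38 over control (limma adjusted p = 0.12) and 1.85 ± 0.38 over the combination, whose difference from dexamethasone was -1.85 (limma adjusted p = 0.147). CRYAB, a small heat shock protein that also serves a cyclin D1 ubiquitin ligase, differed from control by 0.66 with dexamethasone and 0.69 with the combination (limma adjusted p = 0.249 and 0.28), and neither passed.

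Genes of the S, G2 and M phases, which dividing cells express, were measured in part. Of 24 listed 17 were tested, and CCNB1, CCNB2, CDK1, BUB1, BUB1B and CENPF were too dim. The list mean per array ran from -2.10 to -1.84 in controls, -2.17 to -1.56 with dexamethasone and -1.85 to -1.21 with the combination. TOP2A, the topoisomerase of dividing cells, was at -2.81, -5.81, -5.34 and -4.85 with dexamethasone and at -3.39, -1.67, -2.31 and -2.53 with the combination. The difference of 2.23 ± 0.58 did not pass (limma adjusted p = 0.193), dexamethasone replicate 1 lay within the combination range, and 2 of the 4 dexamethasone arrays were above background. MCM3, a helicase subunit, differed from control by 1.52 with dexamethasone and 1.18 with the combination (limma adjusted p = 0.145 and 0.324), but its probe was above background on 5 of 12 arrays.

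**Figure D5:**
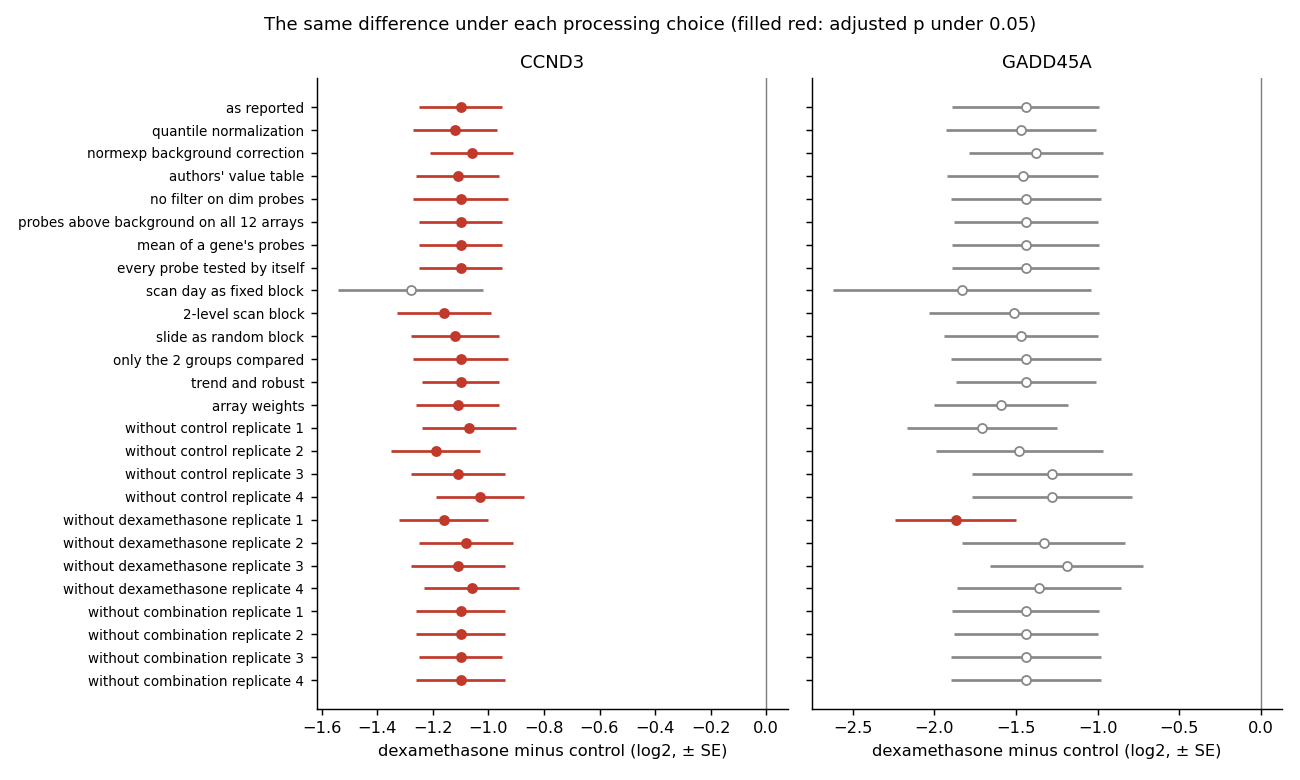
The difference between dexamethasone and control (log2, ± SE) of CCND3 (left) and GADD45A (right) is plotted under each processing choice and with each array left out; filled red points have an adjusted p under 0.05. CCND3 stays between -1.28 and -1.03 and loses its call only with scan day as a fixed block, a fit that rests on 1 control bull. GADD45A is called only without dexamethasone replicate 1.

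The CCND3 fall was called in 12 of 13 alternative settings, with changes of -1.28 to -1.06. It was also called in all 12 fits that left out 1 array, with changes of -1.19 to -1.03 (limma adjusted p = 0.00628 to 0.0456). The CCND3 difference between the treated groups was called in 0 of these 25 fits by limma (adjusted p = 0.0543 to 0.34), although it kept its direction in each. The GADD45A difference after dexamethasone kept its direction in all 25 and was called in 1.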

How the data were processed

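The authors deposited 1 scanner file per sample, made by Agilent Feature Extraction 9.5.1.1 per the file headers, with spot intensity on a linear scale, and a value table, also as intensity, whose processing was not given in the sources used here. From the processed signal, log2 was taken here, each array's 75th percentile was subtracted, spots marked as outliers were left out and the 2 spots of a probe averaged. A probe was kept if 4 or more of 12 arrays had it well above background (14703 of 21475), and the probe with the highest mean stood for a gene. Names were updated through a RefSeq table of assembly ARS-UCD2.0. The design names no build, so no position or sequence is given.

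Differences were tested with limma (version 3.58.1, R version 4.3.3): 3 group means were fitted to all 12 arrays with lmFit, followed by eBayes and Benjamini-Hochberg adjustment over all genes within a comparison (two-sided). Calls needed an adjusted p under 0.05. Exact permutation tests used the 70 assignments of 8 arrays. The fit was tested on simulated data. Each array is a separate animal, and the replicate numbers follow file order and pair nothing. Members and lists were chosen with earlier results of these data known. Named besides the members were, per pathway list and comparison, the gene of smallest p, of marker lists the called genes, and the 3 genes most correlated with each member. CDK4 (the kinase partner), FKBP5 (a glucocorticoid receptor target) and dim or absent list members were named outside this rule, as were GADD45B and MYOD1. Alternatives changed normalization, background, filter, probes, scan day, slide, variance model and arrays.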

Additional observations from a re-analysis of the deposited data

Results flagged for a closer look

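Within groups of 4 bulls, a bull far from the other 3 was looked for with Dixon's ratio in 21 groups, and chance flags about 1 in 20 groups. CCND2 in control replicate 3 was at -3.93, with the other controls between -3.59 and -3.52 (ratio 0.832, just past the critical value). CCND3 in combination replicate 3 was at 0.74, with the other combination bulls between 1.05 and 1.09 (ratio 0.868). That bull still lay above all dexamethasone bulls for CCND3, whose highest level was 0.38.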

How the results depend on the processing

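The count of these genes called for dexamethasone against control was 1 in the reported fit, 0 with scan day as a fixed block, and 1 to 2 when each array was left out, the 2 being without dexamethasone replicate 1. No paired analysis was possible because the replicate numbers were given in file order. The following differences, none of them called, changed sign. With scan day as a fixed block, MYC was -1.02 for dexamethasone and -0.89 for the combination against control, and CDKN1A was -1.03 for the combination against control. CCND1, CCND2 and CDKN1C were -0.30, 0.10 and -0.16 for the combination against dexamethasone in that fit. These values equal the differences within scan day 2, the only day with arrays of more than 1 group. Those against control therefore rest on 1 control bull. MYC for dexamethasone against control was -0.04 with slide as a random block and -0.15 with array weights. For the combination against dexamethasone CCND1 was -0.19 with array weights and CDKN1C -0.02 after normexp. When arrays were left out in turn, MYC for dexamethasone against control ran from -0.18 to 0.33 and GADD45A for the combination against control from -0.39 to 0.11. For the combination against dexamethasone CCND1 ran from -0.20 to 0.23, CCND2 from -0.15 to 0.10 and CDKN1C from -0.24 to 0.26. The cause of the sign changes in fits other than the one with scan day as a fixed block was not tested.

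Counts of all genes called moved more than the call of CCND3. For dexamethasone against control limma called 84 genes, from 0 with scan day as a fixed block, 13 with a 2-level scan block and 25 without the filter to 285 with array weights, and 24 to 261 with arrays left out. For the combination against control the 6 calls became 0 to 128, and for the combination against dexamethasone the 2 became 0 to 74. The number of arrays limits precision, and scan day and group overlap.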
